A study of Oryza sativa with 6 samples.

Results

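The 10 genes described here are prolamin copies of rice chromosome 5. They were given as a list of 10 locus IDs, LOC_Os05g26359 to LOC_Os05g26750, all with the deposited description Prolamin PPROL 14E, out of 55986 rows in the table and 16 prolamin rows on that chromosome. They were picked with their levels in both lines already known, so their differences between the lines are given as a description and are not tested. The RNA came from grains at the mature stage, with 3 libraries of the mutant sg34 and 3 of its wild type, Zhenong 34. The labels name no mutated gene and no allele for sg34, give no treatment other than the stage, and do not say whether replicates came from separate plants or pools of grains. The p-values below thus reflect no more than how far these 6 samples scatter, and that scatter may be technical.

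Prolamins are alcohol-soluble seed storage proteins of cereals. In the rice grain they are made in the starchy endosperm, fold in the endoplasmic reticulum and stay there in protein bodies, whereas the more abundant glutelins move on to vacuoles. Rice prolamins are encoded by families of near-identical genes, many of them side by side, and their transcription in the endosperm is known to be driven by factors such as the Dof protein RPBF, which binds the prolamin box, and the bZIP protein RISBZ1.

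Levels are TPM, a transcript abundance corrected for gene length and scaled by library, so that copies can be compared with each other. The deposited values summed to between 967528 and 991476 per library. Differences between lines are log2 differences of sg34 minus wild type on the log2(TPM + 1) scale, after libraries were rescaled by trimmed means, from 1 limma model of the 16917 rows that reached 1 TPM in 3 or more libraries. All 10 copies passed that filter, 8 of them with at least 1 TPM in each of the 6 libraries. Since the copies are described alike, reads may have been split among them, which was not measured, and each single value is uncertain. How deeply the libraries were sequenced cannot be read from TPM and is unknown.

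Every result below is touched by wild type replicate 1, a library low in summed storage protein transcripts. The 10 copies summed to 0.0899% of its TPM, the 14 glutelin rows to 2.73%, and the 8 storage protein genes among the 12 endosperm markers to 32188 TPM, against 115178 to 162272 TPM in the other 5 libraries. Some single storage protein rows were not the lowest in it as deposited. The prolamin LOC_Os11g33000 had 9585 TPM and the glutelin LOC_Os02g14600 1937 TPM, both within the range of the other libraries. In TPM as deposited, the 4 starch enzyme markers, Wx, AGPL2, AGPS2 and BEIIb, were not low in wild type replicate 1. They summed to 13677, 13929 and 19029 TPM in sg34 replicates 1, 2 and 3. In the wild type replicates they summed to 12785, 10152 and 8771 TPM. No marker TPM given here is rescaled. Rescaling divides wild type replicates 1, 2 and 3 by 1.66, 0.85 and 1.22, which lowers replicate 1 most. In wild type replicates 1, 2 and 3, AGPL2 had 4118, 2267 and 2442 TPM and BEIIb 3536, 2261 and 1897 TPM. AGPS2 had 2342, 2331 and 2292 TPM there, and Wx 2790, 3292 and 2140 TPM. In sg34 replicates 1, 2 and 3 Wx had 9486, 9145 and 12651 TPM. AGPL2, AGPS2 and BEIIb instead had lower mean TPM as deposited in sg34 than in the wild type. After rescaling their log2 differences were -0.31 ± 0.38, 0.04 ± 0.42 and 0.06 ± 0.41, and that of Wx 2.46 ± 0.58 (SE). All 12 endosperm markers were nevertheless at 1 TPM or more in each library. The 3 green tissue markers summed to 17.1 to 52.6 TPM in sg34 and to 125, 5.82 and 20.4 TPM in wild type replicates 1, 2 and 3. The 4 embryo markers summed to 2844 to 4804 TPM in sg34 and to 1018, 3115 and 5331 TPM in those wild type libraries. Single members did not all follow these sums. The embryo marker OSH1 was highest in wild type replicate 1, at 10.8 TPM. The green tissue marker CAB2R had a mean of 25.8 TPM in sg34 and 12.5 TPM in the wild type. No marker of either list was at 0 in any library, and their part in the results was not tested. Between the lines, fewer cells of a type and less RNA per cell cannot be told apart in whole-grain RNA.

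The summed chromosome 5 prolamin transcript of sg34 overlapped that of the wild type, but its largest part came from another copy. LOC_Os05g26690 led in each sg34 library, whereas LOC_Os05g26386 or LOC_Os05g26359 led in each wild type library. The 10 copies summed to 25488, 32208 and 13667 TPM in sg34 replicates 1, 2 and 3. In wild type replicates 1, 2 and 3 they summed to 869, 23128 and 23805 TPM. This was 2.57%, 3.26% and 1.39% of all TPM in sg34, and 0.0899%, 2.34% and 2.42% in the wild type, so the lines overlapped. The log2 ratio of the mean sums, sg34 over wild type and after rescaling, was 0.94, or 0.38 without wild type replicate 1 and 0.58 without rescaling. They were 98.9% to 99.8% of the TPM of the chromosome's 16 prolamin rows in the 6 libraries. Of all 30 prolamin rows of the table the 10 copies held 15.4%, 21.5% and 11.6% of the TPM in sg34 replicates 1, 2 and 3, and 6.29%, 16.8% and 24.7% in the wild type replicates.

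**Figure D1:**
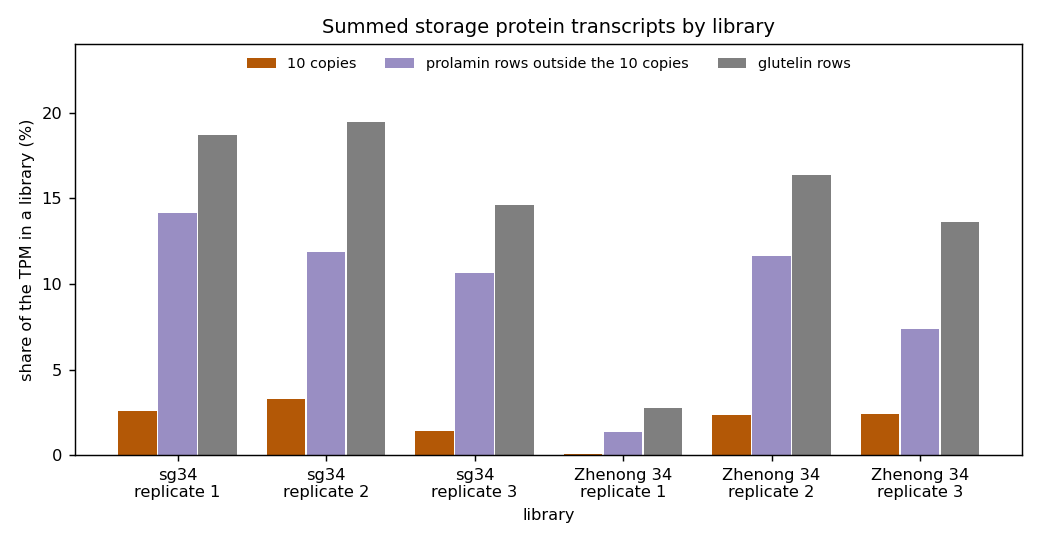
Share of the TPM of each library (%) taken by the 10 chromosome 5 prolamin copies, by the prolamin rows outside them and by the glutelin rows, with 1 group of bars per library. The 10 copies took 1.39% to 3.26% in sg34 and 0.0899% to 2.42% in the wild type, where replicate 1 was low in all 3 classes.

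LOC_Os05g26690 was the leading copy of sg34. It had 11367, 14659 and 5518 TPM in sg34 replicates 1, 2 and 3, against 196, 559 and 971 TPM in the wild type replicates. The lines did not overlap, with means of 10514 ± 4629.6 TPM in sg34 and 575 ± 388 TPM in the wild type (SD, n = 3 each), and sg34 replicate 3 had less than the other mutant libraries. Its log2 difference was 4.88 ± 0.89 (SE), or 4.02 ± 0.65 without wild type replicate 1. Within the 10-copy sum it held 44.6%, 45.5% and 40.4% in sg34, against 22.5%, 2.42% and 4.08% in the wild type. Among the 10 copies it had rank 1 in each sg34 library, and rank 2 in wild type replicate 1 and rank 5 in wild type replicates 2 and 3.

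LOC_Os05g26720, a low copy in the wild type, showed the largest difference of the 10. It had 387, 624 and 224 TPM in sg34 replicates 1, 2 and 3, against 1.66, 3.75 and 5.60 TPM in the wild type replicates. Every sg34 library was far above every wild type library, and the log2 difference was 6.86 ± 0.60 (SE), or 6.35 ± 0.55 without wild type replicate 1. Its share of the 10-copy sum was 1.70% ± 0.22 in sg34 and 0.0769% ± 0.0988 in the wild type (SD, n = 3 each).

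LOC_Os05g26750 is the last of the 10 by locus number. It had 1581, 1939 and 600.0 TPM in sg34 replicates 1, 2 and 3, against 24.7, 87.5 and 151 TPM in the wild type replicates, with a log2 difference of 4.64 ± 0.93 (SE), or 3.70 ± 0.67 without wild type replicate 1. The lines did not overlap, and within each line the order of the libraries was that of LOC_Os05g26690. LOC_Os05g26620, the first of the 4 copies after the longest gap in locus numbers, had 101, 137 and 82.0 TPM in sg34, against 0.71, 9.84 and 9.78 TPM in the wild type replicates. Its log2 difference was 4.54 ± 0.81 (SE), or 3.57 ± 0.38 without wild type replicate 1. It too was higher in each sg34 library than in any wild type library, and had 0.00891 to 0.0149 of the TPM of LOC_Os05g26690 in sg34.

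LOC_Os05g26359 and LOC_Os05g26480 had the opposite pattern. LOC_Os05g26359, which the wild type used as a main copy, had 423, 419.8 and 282 TPM in sg34 replicates 1, 2 and 3, against 132, 9001 and 7667 TPM in the wild type replicates. The lines overlapped only through wild type replicate 1, and the log2 difference was -1.98 ± 1.76 (SE), or -4.19 ± 0.49 without that library. As a share of the 10-copy sum the lines did not overlap, with 1.66%, 1.30% and 2.07% in sg34 against 15.1%, 38.9% and 32.2% in the wild type.

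LOC_Os05g26480 had 43.6, 41.8 and 34.8 TPM in sg34 replicates 1, 2 and 3, against 115, 2847 and 3057 TPM in the wild type replicates. It was the 1 copy of the 10 that was lower in each sg34 library than in any wild type library, wild type replicate 1 included. After rescaling, which divides sg34 replicate 1 by 0.70 and wild type replicate 1 by 1.66, the gap was narrower, still without overlap for LOC_Os05g26480. Its means were 40.1 ± 4.63 TPM in sg34 and 2006 ± 1641 TPM in the wild type (SD, n = 3 each), and its log2 difference was -4.10 ± 1.41 (SE), or -5.88 ± 0.35 without wild type replicate 1. Its share of the 10-copy sum varied little within the wild type, at 13.2%, 12.3% and 12.8%, and was 0.171%, 0.130% and 0.255% in sg34. In share, then, wild type replicate 1 was like its sister libraries for this copy and unlike them for LOC_Os05g26690.

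**Figure D2:**
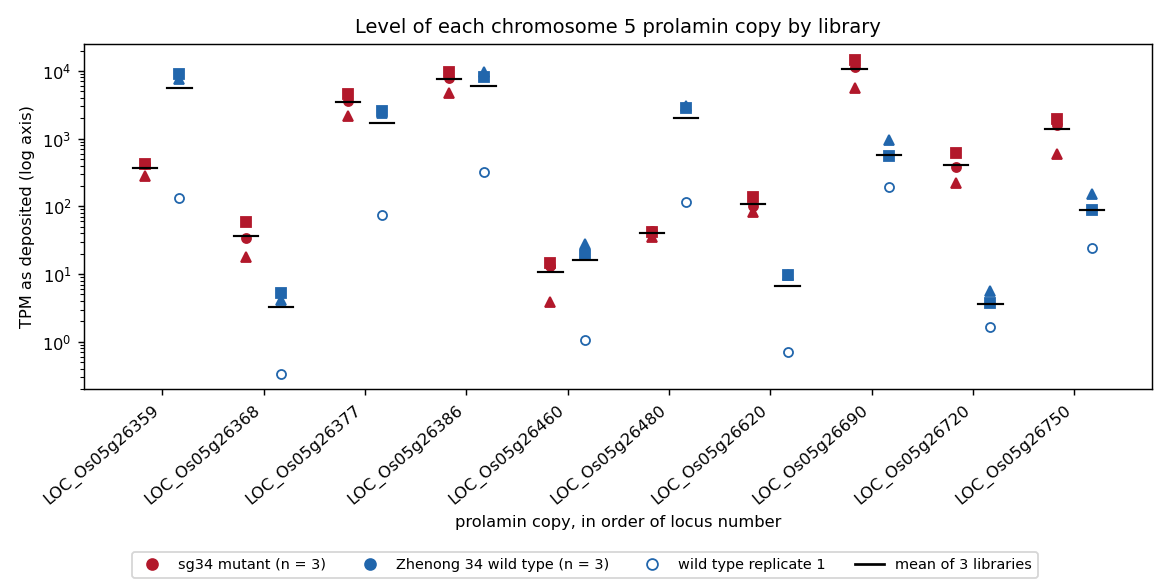
TPM as deposited, on a log axis, of each of the 10 copies in order of locus number, with sg34 libraries on the left of each pair and wild type libraries on the right. Circles, squares and triangles are replicates 1, 2 and 3, open circles are wild type replicate 1, and black lines are means of 3 libraries. LOC_Os05g26720 lies at 224 to 624 TPM in sg34 and 1.66 to 5.60 TPM in the wild type, and LOC_Os05g26480 at 34.8 to 43.6 and 115 to 3057 TPM.

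LOC_Os05g26386 and LOC_Os05g26377, next to each other in the locus order, were abundant in both lines. LOC_Os05g26386 had 7965, 9734 and 4759.5 TPM in sg34 replicates 1, 2 and 3, against 323, 8012 and 9504 TPM in the wild type replicates. Apart from wild type replicate 1 the lines lay within the same range, and the log2 difference of 1.83 ± 1.52 (SE) was 0.017 ± 0.63 without that library. This was the 1 copy whose share of the 10-copy sum overlapped between the lines, at 32.1% ± 2.42 in sg34 and 37.2% ± 2.64 in the wild type (SD, n = 3 each). It had rank 1 or 2 of the 10 in each of the 6 libraries.

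LOC_Os05g26377 had 3574, 4581.5 and 2145 TPM in sg34 replicates 1, 2 and 3, against 75.9, 2584 and 2408 TPM in the wild type replicates. The lines overlapped in TPM, with a log2 difference of 2.59 ± 1.56 (SE), or 0.69 ± 0.59 without wild type replicate 1. Its share was 14.6% ± 0.91 in sg34 and 10.004% ± 1.23 in the wild type (SD, n = 3 each), and these shares did not overlap.

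LOC_Os05g26368 and LOC_Os05g26460 were minor copies, each under 0.2% of the 10-copy sum in every library. LOC_Os05g26368 had 33.6, 58.1 and 17.65 TPM in sg34 replicates 1, 2 and 3, against 0.34, 5.33 and 4.10 TPM in the wild type replicates. It did not overlap between the lines, and its log2 difference was 3.58 ± 0.78 (SE), or 2.82 ± 0.61 without wild type replicate 1. LOC_Os05g26460 had 13.3, 14.4 and 3.94 TPM in sg34, against 1.06, 19.2 and 27.8 TPM in the wild type. Its log2 difference of 0.34 ± 1.13 (SE) had no stable sign, being -0.93 ± 0.64 without wild type replicate 1 and -0.044 without rescaling.

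Counted over the 10 copies, 8 had a log2 difference above 0 and 2 below, with a median of 3.08, against -0.01 over all tested rows. Without wild type replicate 1 the counts were 7 and 3 and the median 1.76. Every sg34 library lay above every wild type library for 5 copies, against 10.9% of all tested rows, and below for 1 copy, against 12.7% of all tested rows. Without wild type replicate 1 the counts were 5 and 3 of the 10 copies, against 16.7% and 18.1% of tested rows. The copies were chosen from this contrast, so nothing is read from these counts. Without rescaling, the median of all tested rows shifted to -0.43, and 9 of the 10 copies kept their sign.

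Shares of the 10-copy sum do not change with the scaling of libraries, but they add up to a fixed total, so that a higher share of 1 copy lowers those of others. The 3 leading copies together held 89.9%, 89.96% and 90.9% of the sum in sg34 replicates 1, 2 and 3, and 74.8%, 85.9% and 85.0% in the wild type replicates. In sg34 these 3 were LOC_Os05g26690, LOC_Os05g26386 and LOC_Os05g26377 in each library. In wild type replicates 2 and 3 they were LOC_Os05g26386, LOC_Os05g26359 and LOC_Os05g26480, and in wild type replicate 1 LOC_Os05g26690 took the place of LOC_Os05g26480.

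**Figure D3:**
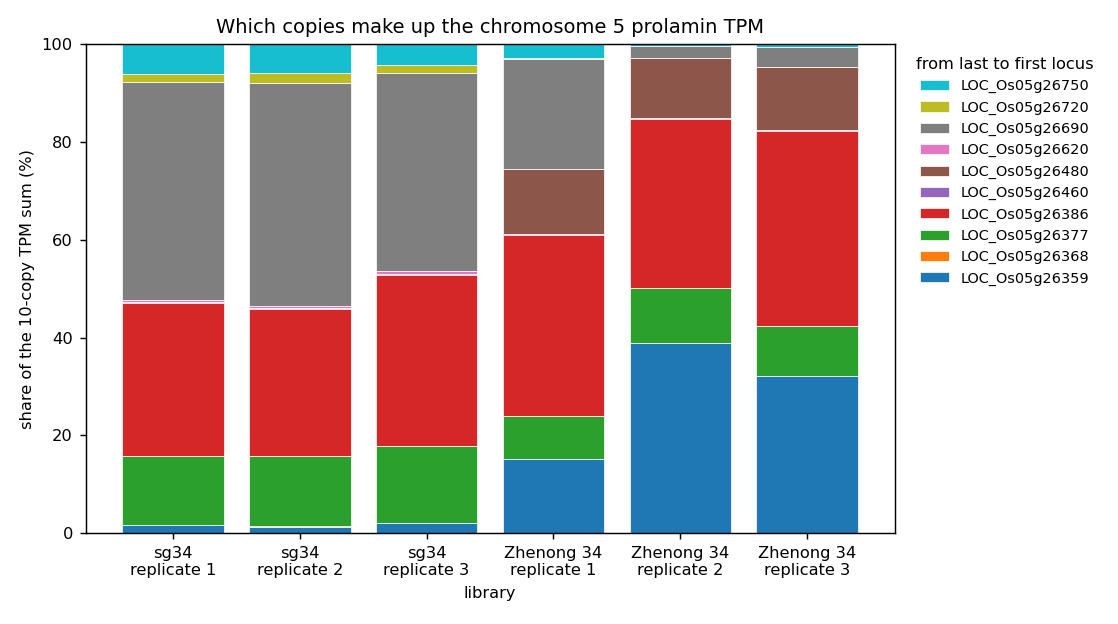
Share (%) of the TPM sum of the 10 copies held by each copy, with 1 stacked bar per library and copies stacked from the first locus at the bottom to the last at the top. The grey part, LOC_Os05g26690, holds 40.4% to 45.5% in sg34 and 2.42% to 22.5% in the wild type, and the blue part, LOC_Os05g26359, 1.30% to 2.07% and 15.1% to 38.9%.

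Along the locus order the copies were split, for description, at the gap between LOC_Os05g26480 and LOC_Os05g26620. The last 4 copies summed to 13436, 17359 and 6424 TPM in sg34 replicates 1, 2 and 3, against 223, 660.1 and 1137 TPM in the wild type replicates. They made up 51.2% ± 3.69 of the 10-copy sum in sg34 and 11.1% ± 12.6 in the wild type (SD, n = 3 each), where replicate 1 had 25.6% and replicates 2 and 3 had 2.85% and 4.78%. All 4 had positive log2 differences, at 4.54 to 6.86. The first 6 summed to 12052, 14849.8 and 7243 TPM in sg34, against 647, 22468 and 22668 TPM in the wild type, and were mixed in direction, from -4.10 for LOC_Os05g26480 to 3.58 for LOC_Os05g26368. LOC_Os05g26359 and LOC_Os05g26368 are neighbours in the list and had log2 differences of opposite sign, though the former overlapped between the lines through wild type replicate 1. The split was drawn after the values had been seen, and the order is that of the locus numbers, as coordinates were not used here.

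Between the first and the last copy the table lists 40 rows, of which 10 are the copies, 3 are other prolamin rows and 27 carry no prolamin description. Of these 27, 16 were at 0 in all libraries and 4 passed the filter. In sg34 these 4 lay between 1801 and 18627 TPM. LOC_Os05g26660, described as a mitochondrial external NAD(P)H-ubiquinone oxidoreductase, an enzyme of the respiratory chain, had 5696, 7572 and 2501 TPM in sg34 replicates 1, 2 and 3, against 76.8, 336 and 519.8 TPM in the wild type replicates. Its profile was close to that of LOC_Os05g26690, the next listed row with reads, at 0.501, 0.517 and 0.453 of that copy's TPM in sg34 and 0.392, 0.601 and 0.535 in the wild type.

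LOC_Os05g26600 and LOC_Os05g26410 are described as retrotransposon polyproteins, and LOC_Os05g26740 has no description but a reverse transcriptase domain. LOC_Os05g26600 had 13772, 17497 and 8745 TPM in sg34, against 214, 11489 and 9990.1 TPM in the wild type, and stayed between 2.82 and 4.45 times LOC_Os05g26377 in all 6 libraries. LOC_Os05g26740 had 13165, 18627 and 8017 TPM in sg34, against 552, 30771 and 25413 TPM in the wild type. LOC_Os05g26410 had 3233, 3485 and 1801 TPM in sg34, against 36.2, 778 and 844 TPM in the wild type. By limma 0 of these 4 rows were called in either direction at an adjusted p under 0.05, and 2 had an unadjusted p under 0.05, against 17.3% of all tested rows. Whether these gene models overlap prolamin transcripts was not tested.

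**Figure D4:**
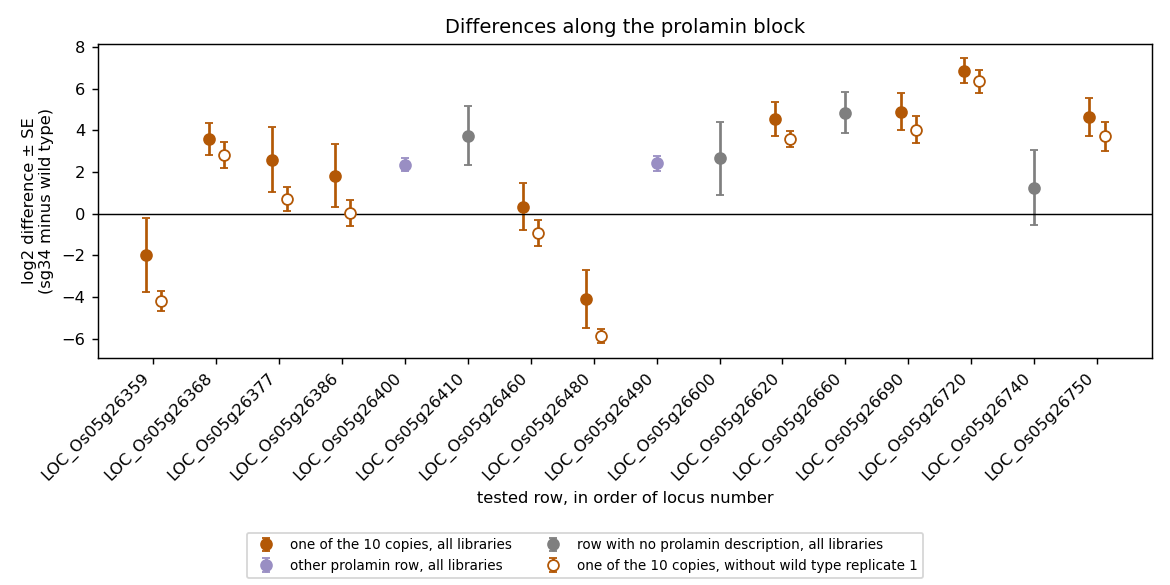
Log2 difference, sg34 minus wild type, with its SE, of each tested row from LOC_Os05g26359 to LOC_Os05g26750 in order of locus number, from the model of all tested rows. Filled points use all libraries, and open points, shown for the 10 copies, leave out wild type replicate 1. The 4 last copies lie between 4.54 and 6.86, while LOC_Os05g26359 and LOC_Os05g26480 lie at -1.98 and -4.10.

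Ratios between copies within a library do not depend on the library's scale. Over the 6 libraries the ratio of a pair of copies ranged by a median of 21.6 times, taken over the 45 pairs. This median was 1.61 times within sg34 and 3.91 times within the wild type, replicate 1 included. A range over 6 libraries cannot be narrower than that over 3 of them, and the copies were chosen from this contrast. Nothing is therefore read from the gap between these medians. The steadiest pair was LOC_Os05g26690 over LOC_Os05g26750, at 7.19, 7.56 and 9.20 in sg34 replicates 1, 2 and 3 and 7.93, 6.39 and 6.44 in the wild type replicates. This pair was the only 1 of the 45 to stay within 2 times over all libraries.

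LOC_Os05g26377 over LOC_Os05g26386 was 0.449, 0.471 and 0.451 in sg34, against 0.235, 0.322 and 0.253 in the wild type, so that even these neighbours kept different proportions in the lines. LOC_Os05g26359 over LOC_Os05g26480, the pair that was low in sg34, was 9.70, 10.05 and 8.11 in sg34, against 1.14, 3.16 and 2.51 in the wild type. The widest pair was LOC_Os05g26480 over LOC_Os05g26720, at 0.113, 0.0670 and 0.156 in sg34, against 69.4, 759 and 546 in the wild type. The pairs named were chosen by their values.

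**Figure D5:**
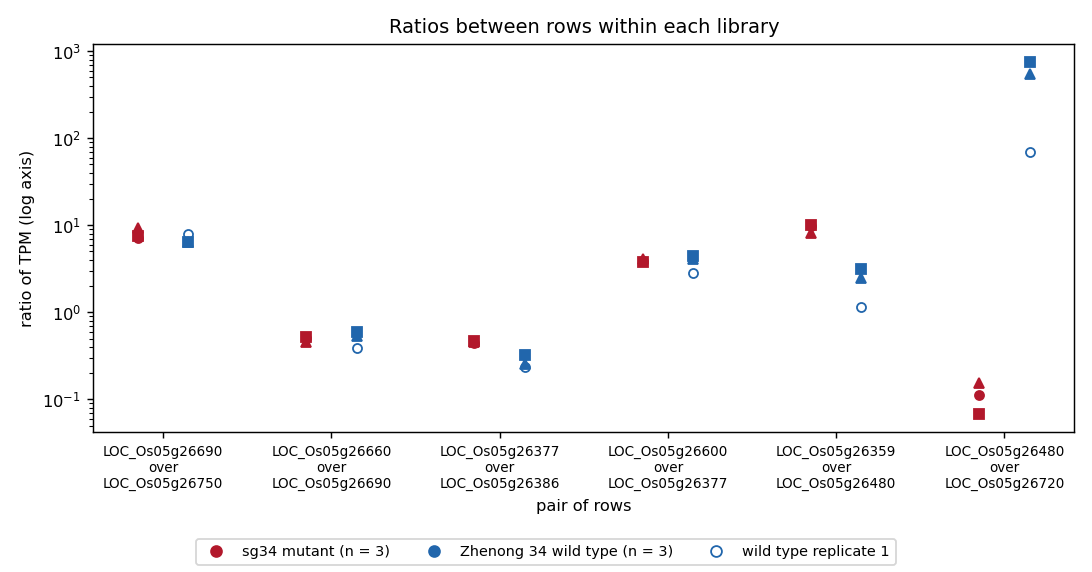
Ratio of TPM between 2 rows within each library, on a log axis, for 6 pairs of rows, with sg34 libraries on the left of each pair and wild type libraries on the right. Shapes are replicates 1, 2 and 3 as circles, squares and triangles, and open circles are wild type replicate 1. LOC_Os05g26690 over LOC_Os05g26750 stays between 6.39 and 9.20, and LOC_Os05g26480 over LOC_Os05g26720 is 0.0670 to 0.156 in sg34 and 69.4 to 759 in the wild type.

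All 10 copies, like all 16 rows of the chromosome with their description, carry the gliadin domain, which marks cereal prolamins. They differ in the nearest protein entry given for them, of which there are 7. LOC_Os05g26368, LOC_Os05g26377 and LOC_Os05g26386 share 1 entry named prolamin, with log2 differences of 3.58, 2.59 and 1.83 (2.82, 0.69 and 0.017 without wild type replicate 1). LOC_Os05g26359 and LOC_Os05g26620 share 1 entry named putative prolamin 7, yet their log2 differences were -1.98 ± 1.76 and 4.54 ± 0.81 (SE). Without wild type replicate 1 they were -4.19 ± 0.49 and 3.57 ± 0.38 (SE). Estimates for these copies, nearest to the same protein, thus had opposite signs. The TPM of LOC_Os05g26359 overlapped between the lines through wild type replicate 1. Of the 10 copies 0 could be matched by ID to the RefSeq gene table used for names.

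By profile over the 6 libraries, the rows outside the 10 copies most like LOC_Os05g26690 were LOC_Os05g26660, LOC_Os05g26770 and the prolamin PPROL 17D gene LOC_Os12g17010. Likeness was the root mean square difference of centred log2(TPM + 1) profiles, which was 0.19, 0.48 and 0.51 for these 3, out of 389 rows that varied enough to be compared. Among the copies, LOC_Os05g26750 was nearest to it at 0.18 and LOC_Os05g26480 farthest at 4.60. For LOC_Os05g26386, the copy with the highest wild type mean, the nearest of 792 such rows were the undescribed LOC_Os03g16940 and LOC_Os08g23170 and LOC_Os07g20340, described as heavy metal-associated isoprenylated plant protein 26, at 0.33, 0.41 and 0.44. Among the copies LOC_Os05g26377 was nearest to it, at 0.40.

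The chromosome holds 6 other rows with the same prolamin description, of which 4 were tested. By limma 3 of these were called higher in sg34 and 0 lower. Over all tested rows 1.89% were called higher and 1.87% lower at an adjusted p under 0.05. LOC_Os05g26400 and LOC_Os05g26490, among the 3, passed the filter only through sg34, where they are high. The count is therefore not read against that share. LOC_Os05g26770, beyond the last copy, had 228, 246 and 98.9 TPM in sg34 replicates 1, 2 and 3, against 5.99, 19.4 and 27.9 TPM in the wild type replicates, with 3.95 ± 0.78 (SE) as its log2 difference (adjusted p = 0.0447 by limma). LOC_Os05g26400, next to LOC_Os05g26386, had 4.17, 6.67 and 3.67 TPM in sg34 and 0.12, 0.42 and 0.52 TPM in the wild type, with 2.34 ± 0.31 (SE) as its log2 difference (adjusted p = 0.00859 by limma). LOC_Os05g26490, next to LOC_Os05g26480, had 5.66, 5.82 and 3.14 TPM in sg34, against 0, 0.44 and 0.37 TPM in the wild type, with 2.42 ± 0.36 (SE) as its log2 difference (adjusted p = 0.0136 by limma).

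Both of the last rows passed the filter only through sg34, where they are high, so their calls say little about the family. The call of LOC_Os05g26770 was lost in the fits without sg34 replicate 1 or 2 or wild type replicate 2 or 3 (limma adjusted p = 0.184, 0.189, 0.0678 and 0.0925) and with the replicate number as a block (0.157). It was also lost with a pseudocount of 0.1 (0.0591), with at least 5 TPM in 3 libraries (0.0641) and with no filter (0.0952). That of LOC_Os05g26490 was lost without sg34 replicate 1 or 2 or wild type replicate 3 (limma adjusted p = 0.0631, 0.0722 and 0.0637) and with the block (0.0709), and that of LOC_Os05g26400 without sg34 replicate 1 (0.0512). LOC_Os05g26350, before the first copy, had 31.9, 37.9 and 11.7 TPM in sg34 and 2.88, 19.2 and 35.2 TPM in the wild type, with 1.29 ± 0.9999 (SE) as its log2 difference (adjusted p = 0.529 by limma). LOC_Os05g26250 and LOC_Os05g26440 did not exceed 2.49 TPM in any library and were not tested.

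On other chromosomes 10 of 14 prolamin rows were tested. By limma 0 were called in either direction, against 1.89% called higher and 1.87% lower over all tested rows. An unadjusted limma p under 0.05 was found for 2 of the 10, against 17.3% of all tested rows. The widest of the 10, LOC_Os12g16880, named after its values were seen, had 0.11, 1.03 and 1.10 TPM in sg34 replicates 1, 2 and 3, against 53.2, 4249 and 3389 TPM in the wild type replicates. Its log2 difference was -8.77 ± 1.78, and that of LOC_Os12g17010 was 4.52 ± 0.96 (SE, limma adjusted p = 0.05005 and 0.0596). Without wild type replicate 1, LOC_Os12g17010 was called higher at a log2 difference of 3.39 ± 0.50 and LOC_Os12g16880 lower at -10.95 ± 0.38 (SE, limma adjusted p = 0.0172 and 0.000111), in a fit that called 2.15% of all tested rows higher and 2.19% lower. These 2 rows share 1 description, PPROL 17D, and differed in opposite directions. The median over the 10 rows was 1.65 with all libraries and 0.45 without wild type replicate 1.

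Of the genes that act around prolamins, 0 passed the limma threshold in either direction, in lists of 9 regulators of endosperm transcription, 16 genes of protein folding and traffic and 13 tested glutelin rows. At an unadjusted p under 0.05 there were 4, 1 and 1, against 17.3% of all tested rows. The regulators had a median log2 difference of 0.69, folding and traffic genes of -0.01 and glutelins of 1.34. Without wild type replicate 1 these medians were 0.35, -0.14 and 0.48. The members with the smallest p were the endosperm factor NAC20 at 1.29 ± 0.28, the vacuolar processing enzyme VPE1, which cuts proglutelins, at 1.15 ± 0.25 and GluB2 at 1.10 ± 0.44 (SE, limma adjusted p = 0.0628, 0.0658 and 0.270). With no variance trend NAC20 and VPE1 passed (0.0479 and 0.0446), and with library weights all 3 did (0.00239, 0.00374 and 0.0185). Without rescaling the log2 differences were smaller, at 0.77 for NAC20, 0.63 for VPE1 and 0.58 for GluB2 (limma adjusted p = 0.332, 0.368 and 0.372). With the replicate block the limma adjusted p of NAC20 and VPE1 was 0.185 and 0.281, and with 1 library left out it reached 0.285 and 0.254.

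The 2 factors best known for prolamin promoters are given for their role and not by the rule for named genes. RPBF had 327 ± 16.8 TPM in sg34 and 555 ± 7.95 TPM in the wild type (SD, n = 3 each), which after rescaling left -0.24 ± 0.35 (SE) as its log2 difference (adjusted p = 0.744 by limma). RISBZ1 had 138 ± 13.9 TPM in sg34 and 123 ± 18.0 TPM in the wild type (SD, n = 3 each), with 0.69 ± 0.36 (SE) as its log2 difference (adjusted p = 0.377 by limma). A p above the threshold does not show that the factors were equal in the lines, and their part in the differences of the 10 copies was not tested.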

How the data were processed

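Grain mRNA of 3 sg34 and 3 Zhenong 34 libraries was analysed from 1 table of 55986 rows. The deposited table holds TPM with 2 decimals, summing to between 967528 and 991476 per library. RSEM, Bowtie2, DESeq2 1.12.4, StringTie and HISAT2 2.1.0 are named per the submitters' processing notes, without roles. The build named there is a mouse build, which cannot be that of rice loci, so the build is not given in the sources used here. Mutant columns are headed sg31 to sg33 where labels say sg34; they were matched by replicate number, as the only mutant, and 0 per-sample columns were left unused.

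The design allowed for counts or TPM; for TPM, rows with at least 1 TPM in 3 libraries (16917) were rescaled with trimmed mean of M values factors, computed without weights (30% of M and 5% of A values trimmed), and log2(TPM + 1) was fitted with limma 3.58.1 in R 4.3.3, with a variance trend and Benjamini-Hochberg adjustment at 0.05. Fits without a library kept the same rows. The script was tested on simulated data. The pseudocount shrinks differences of low genes. Named genes were the 10 copies, other prolamin rows of their block, called list members and the smallest p of each list, and the 3 rows nearest in profile to each of 2 leading copies. Members and lists were chosen with earlier results of these data known. Sequences of the copies were not used here.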

Additional observations from a re-analysis of the deposited data

How the results depend on the processing

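Of the 10 copies, 9 kept the sign of their log2 difference in every alternative run, including each library left out. LOC_Os05g26460 did not: it was -0.044 without rescaling and -0.11 with library weights, and -0.93 to 1.04 with 1 library left out, negative without wild type replicate 1 or sg34 replicate 1. Of the 9, LOC_Os05g26386 fell to 0.017 ± 0.63 and LOC_Os05g26377 to 0.69 ± 0.59 (SE) without wild type replicate 1, so their signs are uncertain. With a pseudocount of 5, LOC_Os05g26720 had 5.82. The log2 ratio of the 10-copy sums was 0.38 to 1.60 with 1 library left out, the share of LOC_Os05g26690 was 30.2 to 40.2 percentage points higher in sg34, and that of LOC_Os05g26386 had a difference of -6.49 to -3.78 points. Called rows numbered 320 higher and 316 lower, against 186 higher without rescaling, 129 and 140 with at least 5 TPM in 3 libraries (fewer rows tested), 2137 and 1779 with library weights, where the cause was not tested, and 165 to 364 and 155 to 370 with 1 library left out. Other prolamin rows called numbered 3, against 0 at 5 TPM, 5 with library weights and 0 to 5 with a library left out. Among these calls 0 were lower in the main fit. There was 1 lower without rescaling, with upper-quartile factors, with a pseudocount of 0.1 and with library weights. Calls appeared with library weights for 2 glutelins, 5 regulators and 1 member of the folding and traffic list, VPE1. With no variance trend they appeared for 1 regulator and VPE1, and without wild type replicate 2 for 1 regulator (0 to 1 over the libraries left out). Replicate numbers did not pair the libraries, whose deviations correlated at -0.54, 0.003 and -0.37; with the replicate block 131 rows were higher and 123 lower, 1 of them another prolamin row. Non-overlap counts as deposited and without wild type replicate 1 were added after seeing the data. TPM give no depth, so no detection limit can be set.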
